A study of Arabidopsis thaliana with 4 samples.

Results

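The chromatin of *hyl1-2* leaves was compared with that of WT leaves without the antibody, from the input libraries, which are 2 of the 4 libraries of the series. Of 119149 windows of 1 kb on the 5 nuclear chromosomes of *Arabidopsis thaliana*, 112383 (94.3%) held at least 20 uniquely aligned reads in both inputs and were compared. The series measured total RNA polymerase II (RNA Pol II) by ChIP-seq in WT and *hyl1-2*, with an input and a ChIP library of each genotype. WT plants were ecotype Col-0, and *hyl1-2* is a T-DNA insertion line used as a knock-out of HYL1. Leaves of both genotypes came from 21-day-old plants grown in soil at 22 °C, were fixed with 1% formaldehyde and were sonicated for 30 min to fragments of 200 to 300 bp. With 1 library per genotype, no difference has a replicate check, and intervals of ratios in the text are exact 95% intervals that cover counting error only. How many plants went into a library is not given in the sources used here.

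An input is fixed and sonicated chromatin from which DNA is sequenced without immunoprecipitation, and it serves as the reference against which ChIP signal is read. Its read density follows the number of copies of a sequence in the genome, how readily the chromatin breaks, the base composition of the fragments and how uniquely they align. HYL1 is a double-stranded RNA-binding protein that works with the RNase III enzyme DCL1 and the zinc-finger protein SERRATE in the Microprocessor, which cuts miRNA precursors in the plant nucleus. A T-DNA insertion leaves a place in the gene that no ungapped read of the mutant can cross, although the sequence on either side is still there. Leaf DNA also holds the chloroplast and mitochondrial genomes in many copies, and a long insertion of mitochondrial DNA lies near the centromere of chromosome 2 of the Col-0 reference.

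WT input held 17734005 reads and *hyl1-2* input 22766187 after the authors had removed duplicates, and by the read names both were sequenced on the same lane. Reads that aligned to several places were 14.4% of WT input and 14.3% of *hyl1-2* input. The aligned part of a read was 50 bp. Read numbers were scaled to RPM, the reads in every 1000000 of that library's total, and a ratio is always *hyl1-2* over WT.

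The gene that carries the insertion, HYL1 (AT1G09700), came first. In TAIR10 it spans chr1:3137649-3140353 and is read from the minus strand. At 1 place in it, between bases 3139495 and 3139520 in the second exon, no *hyl1-2* input read covered 5 bp on both sides of any of 25 neighbouring junctions between bases. The sequence is shown because it lies in the gene that carries the insertion, with 20 bp on each side. It is the plus strand of chr1:3139475-3139540, and the capitals mark the bases that hold these junctions.
HYL1 site: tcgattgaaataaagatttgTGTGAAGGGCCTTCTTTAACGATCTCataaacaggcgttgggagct
Across these junctions WT input had between 4 and 11 crossing reads with a median of 8, and *hyl1-2* input had 0 at each. The WT ChIP library, which the choice of the site in the inputs did not use, had between 20 and 26 crossing reads. Sites were kept only where the *hyl1-2* ChIP library also had 0 crossing reads at a junction with at least 10 WT input reads. The 0 of both *hyl1-2* libraries was thus part of the choice and not a separate check. The *hyl1-2* ChIP library had a median of 0 and reached 7 at the edge of the site, while its median was 99 in the flanks within 500 bp. In the same flanks, which leave out the bases nearest to the site, WT input had a median of 6 and *hyl1-2* input of 7 crossing reads. These counts were not scaled for depth, and only their medians were alike. Single junctions differed in both directions, with 12 reads in WT and 2 in *hyl1-2* input 70 bp past the site centre, and 7 and 14 at 150 bp.

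**Figure D1:**
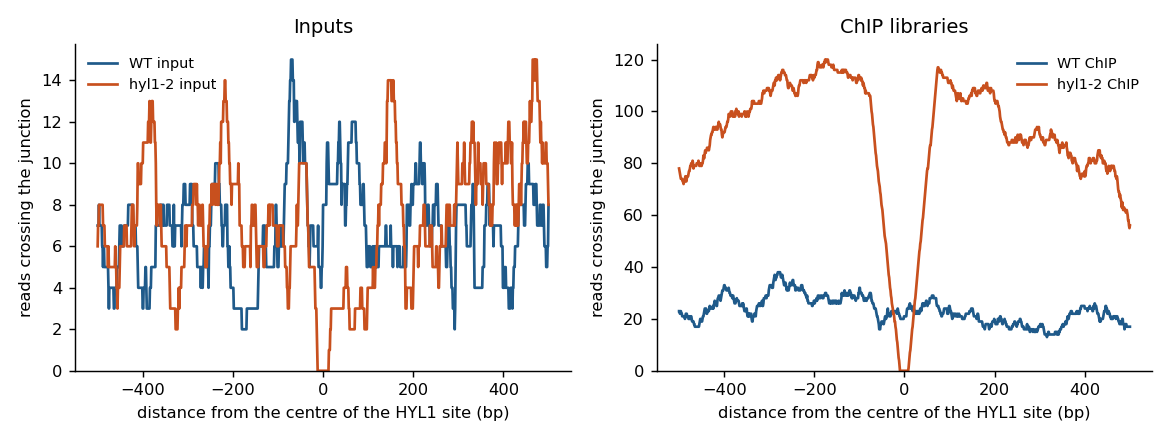
Reads that crossed each junction with at least 5 aligned bp on both sides, by distance from the centre of the HYL1 site, in the inputs (left) and the ChIP libraries (right), WT in blue and *hyl1-2* in orange. Both *hyl1-2* libraries fall to 0 at the site, where WT input keeps 4 to 11 reads and WT ChIP 20 to 26. The choice of the site asked for this 0 in both *hyl1-2* libraries.

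The rest of the gene was present in *hyl1-2* input at a level close to that in WT. Fragments centred in the whole gene numbered 328 in WT and 387 in *hyl1-2* input, with a ratio of 0.919 (0.791 to 1.07). Upstream of the site, within the gene, the ratio was 0.937 (0.733 to 1.20) from 123 and 148 reads, and downstream of it 0.940 (0.776 to 1.14) from 198 and 239. The 200 bp around the site centre stood lower, with 38 reads in WT and 18 in *hyl1-2* (ratio 0.369, 0.198 to 0.663), although these reads include those that chose the site. The 4 windows of 1 kb that touch the gene had ratios between 0.812 and 1.06, and none was called. With 10 kb added on each side of the gene the ratio was 0.986 (0.941 to 1.03). With 100 kb added it was 1.00 (0.988 to 1.02), from 29329 and 37791 reads, and both intervals included 1.

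The other genes of the miRNA pathway were near a ratio of 1. DCL1 (AT1G01040), the nuclease of the Microprocessor, had 1307 reads in WT and 1609 in *hyl1-2* input, with a ratio of 0.959 (0.891 to 1.03). SE (AT2G27100), which encodes SERRATE, gave 1.03 (0.929 to 1.15) from 602 and 799 reads. HEN1 (AT4G20910), the methyltransferase that protects miRNA 3′ ends, gave 0.992 (0.901 to 1.09). AGO1 (AT1G48410), the main effector of plant miRNAs, gave 1.01 (0.934 to 1.10), and HST (AT3G05040), which encodes the exportin-5 relative HASTY, gave 1.04 (0.960 to 1.13). Each of these 5 intervals includes 1. The short miRNA loci had few reads, so their intervals are wide. MIR161 had 25 and 36 reads (1.12, 0.655 to 1.95), and MIR163 had 47 and 59 (0.978, 0.655 to 1.47). MIR393A had 14 and 16 reads (0.890, 0.407 to 1.97), MIR393B 26 and 28 (0.839, 0.474 to 1.49), MIR157A 10 and 21 (1.64, 0.737 to 3.89) and MIR157C 42 and 41 (0.760, 0.482 to 1.20). No difference was detectable at these loci at this depth.

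Over the whole nuclear genome the inputs were even. The median log2 ratio over the 112383 windows was 0.0022, with a median of 141 reads per window in WT input and 182 in *hyl1-2* input. The spread of the log2 ratio, an SD taken from the median absolute deviation, was 0.165, and counting error alone would give 0.161. The middle 98% of windows lay between −0.42 and 0.42. A ratio of 1.5 or more was reached by 164 windows (0.146%), and 207 windows (0.184%) had the inverse or less. The interval lay above 1 for 2280 windows (2.03%) and below 1 for 2119 (1.89%). Of the called windows, 101 of the 164 higher and 116 of the 207 lower had an interval that left out 1. Called windows were shallow, and the median of the smaller of the 2 counts was 31 reads in the higher and 36 in the lower ones. The whole interval lay past the fold of 1.5 in 0 windows that were higher and in 1 that was lower. Windows just above the minimum, with 20 to 24 reads in the shallower input, numbered 766 with a median log2 ratio of 0.05, and 790 windows just below it had 0.04.

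Each chromosome was present at the same relative amount in both inputs. Their ratios over all compared windows were 1.002 for chromosome 1, 1.001 for chromosome 2, 1.003 for chromosome 3, 1.000 for chromosome 4 and 1.003 for chromosome 5. The lowest and the highest differed by less than 1 part in 100. Pericentromeric windows, those within 2.5 Mb of the centre of the gene-poorest 1 Mb of each chromosome, had a median log2 ratio of 0.0012 over 20482 windows. The 91901 windows of the arms had 0.0022, and the difference of −0.001 had a standard error of 0.0018. By chromosome the pericentromeric ratio ran from 0.998 on chromosome 1 to 1.005 on chromosome 5. In steps of 100 kb, all but 2 of 1190 bins lay between 0.925 and 1.06. Those 2, both on chromosome 2 from 3300001 to 3500000, had 1.22 (1.15 to 1.29) and 1.34 (1.23 to 1.45).

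The ratio rose with GC content. The most GC-rich windows, the 11484 at 42.3% or more, had a median log2 ratio of 0.04, and the most GC-poor, the 11471 at 28.6% or less, had −0.07, a difference of 0.11 with a standard error of 0.003. The median went from −0.11 at 18 to 20% GC, over 102 windows, through 0.0001 at 34 to 36%, to 0.07 at 50 to 52%, over 298 windows. Windows of 1 kb covered by protein-coding genes over at least 90% of their length had 38.9% GC on average and a ratio of 1.018 (1.017 to 1.019). Those covered by pseudogenes had 41.3% GC and 1.024 (1.021 to 1.028), while those without an annotated gene had 30.2% GC and 0.971 (0.969 to 0.973). The step between genes and the space between them was thus below 6%, and GC content and gene content moved together across it. Subtracting the median of each GC bin lowered the spread from 0.165 to 0.162. In windows of 100 kb it lowered the spread from 0.0189 to 0.0172, where counting error alone would give 0.0164.

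**Figure D2:**
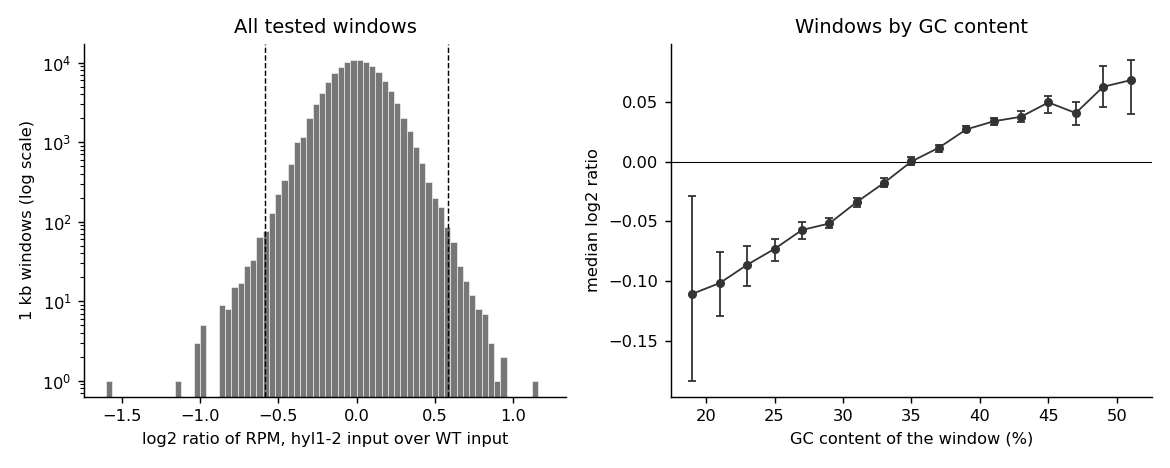
Left, the number of 1 kb windows (log scale) by log2 ratio of RPM, *hyl1-2* input over WT input, with dashed lines at a fold of 1.5 in either direction. Right, the median log2 ratio of windows in bins of 2 percentage points of GC content, with order-statistic 95% intervals, which climbs from −0.11 to 0.07.

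The break of a fragment lies between the base before a read's first base and that base, and in both inputs the step CpG was the most over-represented there, at 1.36 times its share of the genome in WT input and 1.32 times in *hyl1-2* input. Breaks at CpC made up 4.01% of reads in WT input and 4.18% in *hyl1-2* input, and those at GpG 3.02% and 3.15%. Breaks at TpA made up 8.31% and 8.04%, and those at ApA 10.5% and 10.2%. Steps of G and C thus gained and steps of A and T lost between 3 and 5% of their share in *hyl1-2* input, apart from CpG, which fell to 0.976 of its WT share, and ApT and TpT, which stayed within 1%.

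Most called windows stood alone. The 164 higher windows formed 161 regions and the 207 lower ones 204, with no region longer than 2 windows. Of the higher regions 69 touched a pseudogene, 50 a protein-coding gene and 41 no gene, and of the lower ones 66, 43 and 94, with a median GC content of 39.4% in the higher and 31.8% in the lower regions. Of the 112383 compared windows, 20096 held no gene, 5192 were covered by pseudogenes and 47768 by protein-coding genes over at least 90%. Touching counts any overlap, so these numbers are not a matched background for the regions. Of the windows covered by pseudogenes, 38 were higher (0.73%) and 25 lower (0.48%). Those covered by protein-coding genes gave 28 (0.059%) and 15 (0.031%), and those without a gene 43 (0.21%) and 97 (0.48%). All compared windows gave 0.146% and 0.184%. These shares were not matched for depth, and shallow windows pass the fold more readily by counting error. The region that ranked first among the higher ones was chr2:3491001-3492000, at an lncRNA locus (AT2G05365), with 21 reads in WT and 60 in *hyl1-2* input, with a ratio of 2.23 (1.33 to 3.85). It lies in the mitochondrial insertion described below. The next was chr2:3007001-3008000, in a gene for a cysteine-type peptidase (AT2G07240), with 90 and 195 reads and 1.69 (1.31 to 2.19). It was followed by chr3:7917001-7918000 in TIC (AT3G22380), the clock gene TIME FOR COFFEE, with 94 and 202 reads and 1.67 (1.30 to 2.16). The other 7 of the 10 highest were single windows in protein-coding genes with ratios from 1.52 to 1.60.

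The lowest region was chr5:15715001-15716000, which holds no gene and has 20.6% GC. It had 49 reads in WT and 21 in *hyl1-2* input, with a ratio of 0.334 (0.190 to 0.567), and 70 and 57 when reads of several places were included, which is 0.634. The next was chr4:7425001-7426000, also without a gene and with 23.1% GC, at 67 and 44 reads and 0.512 (0.342 to 0.759). Of the 10 lowest regions, TLL1 (AT1G45201), which encodes a triacylglycerol lipase-like protein, held the one with most reads, 180 and 149 (0.645, 0.516 to 0.806). With reads of several places included, 5 of these 10 moved beyond their intervals, to ratios between 0.634 and 0.943.

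Gene bodies leaned slightly towards *hyl1-2* input. Of 37899 annotated genes, 35129 had at least 20 reads in both inputs. Of these, 130 (0.37%) had a ratio of 1.5 or more and 118 (0.336%) the inverse or less. The interval lay above 1 for 1077 (3.07%) and below 1 for 442 (1.26%), and the median log2 ratio of gene bodies was 0.02. Annotated genes had 39.4% GC, and 1 kb windows of 38 to 40% GC had a median log2 ratio of 0.03. Whether the lean goes beyond GC content was not tested. Short non-coding loci made up most of the extremes. Among the 10 highest, 8 were lncRNA loci, led by AT2G05365 in the mitochondrial insertion with 35 and 90 reads (2.00, 1.34 to 3.05) and AT5G07255 with 28 and 74 (2.06, 1.32 to 3.30). Among the 10 lowest, AT3G09255, an lncRNA locus, had 52 and 31 reads (0.464, 0.288 to 0.738). MIR5664 (AT1G07357), an annotated miRNA locus, had 50 and 32 (0.499, 0.310 to 0.793).

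The gene groups were described by their counts and medians, beside a median of 0.02 and shares called of 0.37% higher and 0.336% lower over all genes. All 344 ribosomal protein genes with enough reads, of 350, had ratios under the fold in both directions, with a median log2 ratio of 0.02. The 100 genes of photosystem and chlorophyll-binding proteins had 0.03, and the 52 histone genes 0.0029, again with 0 called in each direction. Over the 178 defensin-like genes with enough reads, which encode small cysteine-rich peptides and whose loci have 32.6% GC, the median was −0.06, with 2 called higher and 3 lower. The 3971 pseudogenes had a median of 0.03 with 28 higher and 25 lower. Of 326 MIR loci, 158 had enough reads, with a median log2 ratio of −0.11 from a median of 31 reads in WT input, and 1 was called higher and 4 lower. The minimum falls mainly on the shallower WT input, so loci near it pass more readily where their WT count is high. This lowers the median, and the spread over these loci was 0.31, beside 0.12 over all genes. The −0.11 is thus not read as a difference. The summed reads of all 326 MIR loci, 7432 and 9484, gave a ratio of 0.994 (0.964 to 1.02) for unique reads and 0.964 (0.939 to 0.990) for all reads. No tRNA gene of 625 reached the minimum, and their sum gave 0.986 (0.950 to 1.02).

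No window of 1 kb was empty in one input and held 20 reads in the other, in either direction. The most reads in a window empty in *hyl1-2* input was 10, and in a window empty in WT input it was 7. With a minimum of 5 reads, 6 runs were empty in *hyl1-2* input and 11 in WT input. The 11 were single windows spread over all chromosomes, with 5 to 7 reads in *hyl1-2* input. Of the 6, the run of 2 windows at chr3:7856001-7858000 and the window at chr3:7860001-7861000 lay close together, and they were chosen for description after their values had been seen, since they fell below the minimum of 20.

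That stretch of chromosome 3, chr3:7849001-7864000, was the longest place where *hyl1-2* input was lower. It was bounded from windows with a ratio of 1/1.5 or less over all reads, of which it held 10 in 15 kb, and its central run, chr3:7857001-7861000, was the longest of the genome with 4 windows. The stretch lies among repeats in the same direction, and few of its reads align uniquely. Over the stretch with 10 kb on each side, 2341 pairs of identical sequences of 50 bp lie exactly 9092 bp apart. The stretch holds AT3G22235, for a cysteine-rich TM module stress tolerance protein, and AT3G22240, for a PCC1-like protein with a cysteine-rich transmembrane domain. It also holds 4 transcribed pseudogenes and 1 further RNA locus (AT3G00400). Input reads chose the stretch and the run, so the low input ratios that follow are part of that choice and not a separate check. In the central run WT input had 64 unique reads and *hyl1-2* input 5, a ratio of 0.0609 (0.0191 to 0.150). With reads of several places, the counts were 575 and 250, a ratio of 0.339 (0.291 to 0.394). Over the whole stretch all reads gave 1956 and 1310, a ratio of 0.522 (0.486 to 0.560), while the 10 kb upstream gave 0.978 (0.910 to 1.05) and the 10 kb downstream 0.888 (0.828 to 0.954).

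The following sequence is shown as the junction in the central run where most WT input reads crossed and no *hyl1-2* input read did. It is the plus strand of chr3:7858229-7858288, and the capitals mark 5 bp on each side of the junction.
Chromosome 3 stretch: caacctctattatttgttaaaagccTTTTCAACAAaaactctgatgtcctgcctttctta
WT input had 10 reads across this junction and *hyl1-2* input 0. WT ChIP had 20 and *hyl1-2* ChIP 11, so the sequence was present in the *hyl1-2* ChIP library. Whether both *hyl1-2* libraries came from the same plants is not given in the sources used here. In the central run the ChIP libraries held 88 unique reads in WT and 67 in *hyl1-2*, a ratio of 0.947 (0.679 to 1.32), and over all reads 818 and 537, a ratio of 0.816 (0.731 to 0.911). Over the whole stretch the ChIP ratio of all reads was 1.38 (1.31 to 1.45), beside 1.40 (1.32 to 1.48) in the 10 kb upstream and 0.989 (0.931 to 1.05) in the 10 kb downstream. The unique reads of the central run were thus far lower in *hyl1-2* input than in WT input, while in ChIP their interval included 1. Over all reads both pairs of libraries were lower there. The run was chosen for its low input ratio and not by ChIP, so the inputs and ChIP cannot be compared on equal terms. RNA Pol II occupancy also sets the ChIP counts, so copy number and occupancy cannot be told apart in them. In windows of 5 kb, chr3:7855001-7860000 was the lowest of 23374 windows, with 90 reads in WT and 22 in *hyl1-2* input, with a ratio of 0.190 (0.114 to 0.306).

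**Figure D3:**
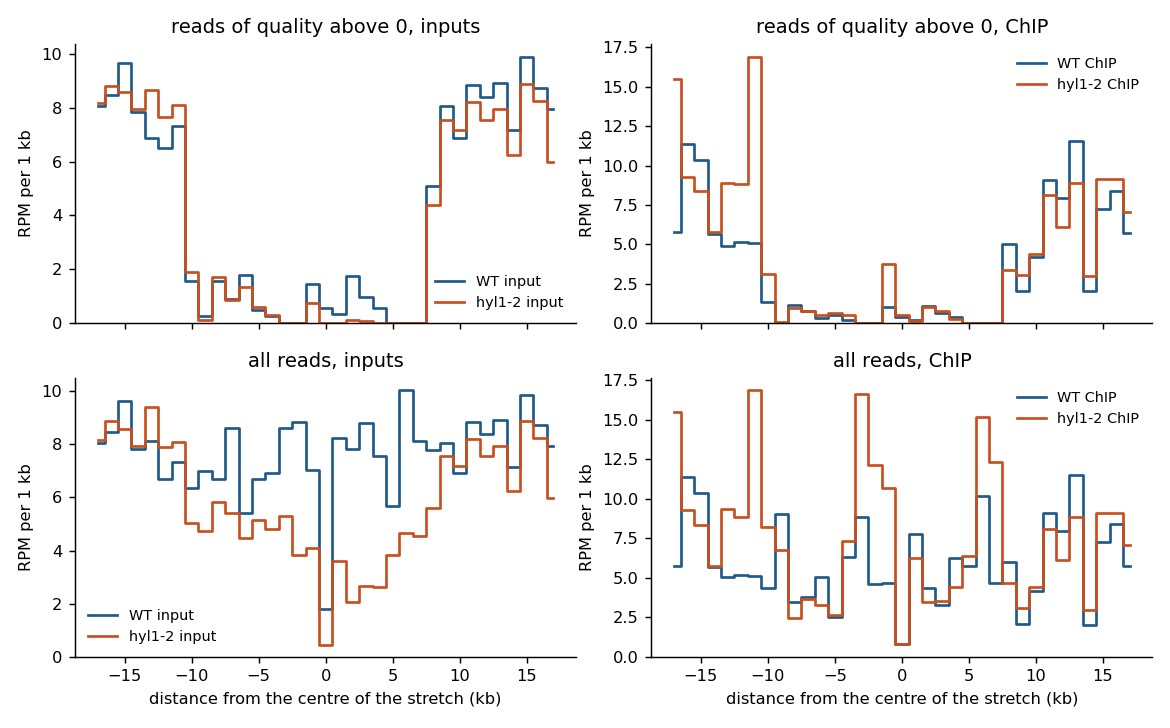
RPM per 1 kb window by distance from the centre of the stretch of chromosome 3, for reads of mapping quality above 0 (top) and all reads (bottom), inputs on the left and ChIP on the right. In the central run *hyl1-2* input has 5 unique reads against 64 in WT input, and over all reads it has 250 against 575, while the ChIP libraries have 67 and 88 unique reads there. The run was chosen from the inputs, where its ratio was low.

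Sites that reads of one genotype do not cross were then counted over the genome. From the inputs alone, 580 sites had 0 crossing reads in *hyl1-2* input and at least 10 in WT input, and 8354 had the opposite, with the deeper *hyl1-2* library giving the larger number. After sites crossed by the ChIP library of the same genotype were left out, 20 and 143 were left. HYL1 was 1 of the 20, and the only one with WT ChIP reads in number: the other 19 had at most 2 crossing reads in WT ChIP, and 13 of them had 0. The HYL1 site was no longer among those found when 10 bp were asked for on each side (13 sites) or at least 15 WT input reads (0 sites). Of the 20, 1 more lay in an annotated gene, the ncRNA locus AT2G24735. The median GC content of the 20 sites with 50 bp on each side was 23.7%, against 42.4% at HYL1. The 143 sites empty in the WT libraries had a median of 24.0%, lay in an annotated gene in 10 cases, and had at least 10 crossing reads in *hyl1-2* ChIP in 5 cases. When *hyl1-2* input was thinned to the reads of WT input, the counts became 46 and 36. The site in HYL1 was among the 46.

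To show how the base composition of these sites differs from that of HYL1, the site with most crossing reads in the other input is given for each genotype, with capitals for the bases that hold the junctions and 20 bp on each side, from the plus strand. The first, chr3:5232092-5232183, had 14 crossing reads in WT input and 0 in WT ChIP, and the second, chr2:7700219-7700279, had 18 in *hyl1-2* input and 2 in *hyl1-2* ChIP.
Site without *hyl1-2* reads: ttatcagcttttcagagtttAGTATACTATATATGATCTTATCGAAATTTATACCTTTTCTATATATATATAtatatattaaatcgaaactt
Site without WT reads: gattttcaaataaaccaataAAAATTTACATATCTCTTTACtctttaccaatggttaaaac
Both run through stretches of A and T, and the first ends in a repeat of TA, unlike the exon of HYL1. At both places the ChIP library of the other genotype was near 0 as well.

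At gene ends the inputs differed by a few percent. In the 200 bp upstream of the 5′ end of 27444 protein-coding genes, density was 7.48 RPM per kb in WT and 7.30 in *hyl1-2* input, with a ratio of 0.976 (0.973 to 0.979). It was 0.993 (0.991 to 0.995) from 1000 to 500 bp upstream, 1.003 (1.000 to 1.006) in the first 200 bp and 1.018 (1.017 to 1.020) from 200 to 1000 bp downstream. In steps of 50 bp the ratio was lowest at 0.968, between 150 and 100 bp upstream, and highest at 1.023, between 250 and 300 bp downstream. GC content moved with it, from 31.7% in the 200 bp upstream to 38.3% downstream. A ratio from GC content was taken from all 200 bp windows of the genome with like GC content. It was 0.986 in the 200 bp upstream, 1.010 in the first 200 bp and 1.010 from 200 to 1000 bp downstream. It comes from the same 2 inputs, gene ends included, so it also holds whatever moves with GC content, such as gene content. From the 200 bp upstream to the first 200 bp, the measured ratio went from 0.976 to 1.003 and that from GC content from 0.986 to 1.010. The value from GC content for 200 to 1000 bp downstream was taken at the centre of that region. Between 250 and 300 bp downstream, GC content gave its highest ratio, 1.017, beside the measured 1.023. Whether GC content accounts for the profile was not tested.

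Past the 3′ end the ratio was 0.987 (0.984 to 0.990) over 200 bp, from 7.92 and 7.81 RPM per kb, and 0.994 (0.991 to 0.997) in the last 200 bp of the gene. From 500 to 1000 bp downstream it was 1.003 (1.001 to 1.005). Windows of like GC content gave 0.991 for both windows of 200 bp, and 1.003 further downstream. In genes at least 1000 bp from their neighbours on both sides, 3652 in number, the ratio was 0.970 (0.962 to 0.978) upstream of the 5′ end and 0.973 (0.965 to 0.982) past the 3′ end.

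**Figure D4:**
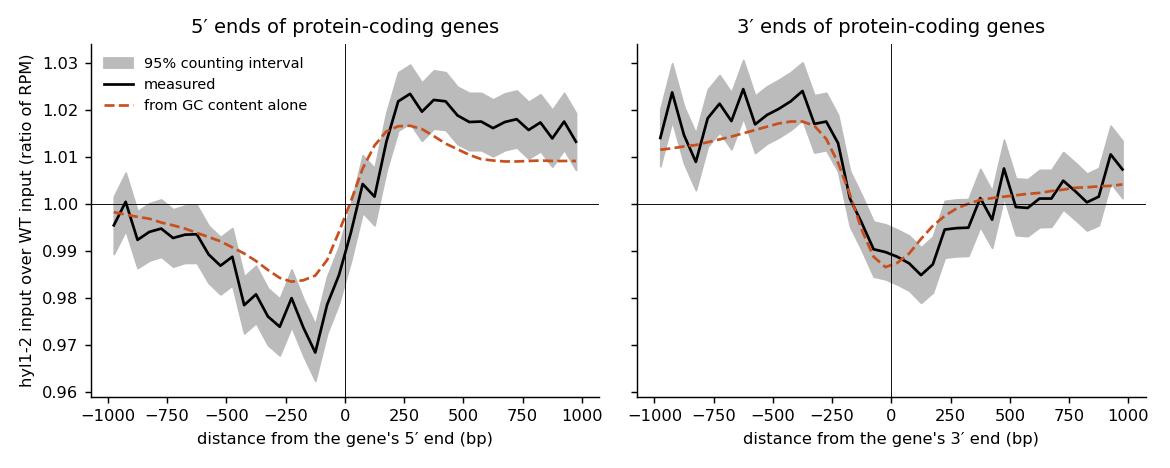
Ratio of fragment density, *hyl1-2* input over WT input, in steps of 50 bp around the 5′ ends (left) and 3′ ends (right) of 27444 protein-coding genes, with the 95% counting interval in grey. The dashed orange line, labelled as from GC content alone, is the ratio of all 200 bp windows of like GC content in the same 2 inputs. The ratio dips to 0.968 upstream of the 5′ end, below the dashed line, and to 0.985 past the 3′ end.

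The groups of genes had wider intervals, and their differences from all protein-coding genes were not tested. Upstream of the 5′ end the ratio was 0.990 (0.963 to 1.02) for the 350 ribosomal protein genes, 0.955 (0.908 to 1.01) for the 100 photosystem and chlorophyll-binding genes and 0.944 (0.881 to 1.01) for the 52 histone genes. These 3 intervals include both 1 and the value of all protein-coding genes. Defensin-like genes were lower on both sides of the 5′ end, at 0.958 (0.921 to 0.997) upstream and 0.957 (0.922 to 0.993) in the first 200 bp. MIR loci gave 1.02 (0.991 to 1.05) upstream and 0.975 (0.948 to 1.00) in the first 200 bp, an order opposite to that of protein-coding genes, in intervals that both include 1. For pseudogenes the upstream ratio was 0.994 (0.985 to 1.00).

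The maximum of the strand shift, a guide to fragment length, lay at a longer shift in WT input, but the maxima were flat. The shift that brought the most 5′ ends of the plus and minus strands together, among shifts of 100 to 400 bp, was 145 bp in WT input and 125 bp in *hyl1-2* input. Shifts from 112 to 163 bp in WT input and from 115 to 136 bp in *hyl1-2* input came within 1 counting error of these maxima, so the ranges overlapped. With all reads the maxima were at 163 and 125 bp, with ranges of 127 to 163 bp and 117 to 162 bp that overlapped. On chromosome 1 alone they were at 163 and 117 bp, with ranges of 156 to 163 bp and 115 to 145 bp that did not overlap. The maximum stood at 1.031 times the level at 350 to 400 bp in WT input and 1.028 times in *hyl1-2* input. At a shift of 50 bp, the aligned length of a read, the height was 1.047 times that level in both inputs. The maxima among shifts of 100 to 400 bp are thus not shown to be the fragment length. Reads were split evenly by strand, with 49.99% on the plus strand in WT input and 50.01% in *hyl1-2* input.

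Organelle reads differed in their share of the libraries. Mitochondrial reads were 0.501% of WT input (88798 reads) and 0.652% of *hyl1-2* input (148550 reads), a ratio of 1.30 (1.29 to 1.31). They took 12.1% and 20.2% of the positions and strands of the mitochondrial genome. Since the authors removed duplicates, a position can hold only 1 read per strand, and with a correction for positions already taken the ratio was 1.37. With unique reads alone it was also 1.37 (1.35 to 1.39). Over 366 windows of 1 kb of the mitochondrial genome the median ratio was 1.32, between 0.957 and 1.84.

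Chloroplast reads were 1.56% of WT input (277150 reads) and 1.29% of *hyl1-2* input (293832 reads), a ratio of 0.826 (0.822 to 0.830). Here 89.7% of the positions and strands of the chloroplast genome were taken in WT input and 95.1% in *hyl1-2* input. With the correction for positions already taken the ratio became 1.03, so the direction of the chloroplast difference depends on that correction. The genes of 18S rRNA, which recur in long arrays, show the limit directly. All positions and strands of the copy at AT3G41768 were taken in both inputs, with 3616 reads each, and its ratio of 0.779 is that of the library totals. No copy number of the chloroplast genome or of rRNA genes can be read from these values.

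The mitochondrial insertion of chromosome 2 moved with the mitochondrial genome. Windows in which at least 50% of the sequences of 50 bp are identical to the reference mitochondrial genome ran from chr2:3239001-3510000, and 258 of its 271 windows held at least 90%. All reads in it numbered 62046 in WT and 100618 in *hyl1-2* input, with a ratio of 1.26 (1.25 to 1.28), and the ratio was above 1 in all 271 windows. The 500 kb before it gave 0.998 (0.989 to 1.01) and the 500 kb after it 0.960 (0.952 to 0.968). In the 500 kb after it, unique reads gave 1.006 (0.992 to 1.02), and the median window ratio over all reads was 0.998. A median window of the insertion had 216 reads in WT input and 361 in *hyl1-2* input, against 145 and 190 before the insertion. Along the insertion the ratio was 1.19 from 3239001 to 3307000 and 1.20 from 3307001 to 3374000, then 1.39 from 3374001 to 3442000 and 1.36 from 3442001 to 3510000. WT input was less dense in the part with the higher ratio, with median windows of 154 and 182 reads against 278 and 293. Unique reads gave 1.23 (1.18 to 1.28) from 3815 and 6010 reads. A unique read needs a base that differs from the mitochondrial sequence the authors aligned to, whose reads ended at 366924 bp. That sequence differs from the reference used here for identity. Reads of the mitochondrial genome that differ from the authors' sequence may thus be among the unique reads. On chromosome 1, 3 windows at chr1:24273001-24276000 with the same kind of sequence gave 1.29 (1.16 to 1.44) over all reads, from 550 and 911, and 0.779 (0.291 to 2.09) over unique reads, from 10 and 10. In windows with no mitochondrial sequence the ratio over all reads was 1.000. A read from the mitochondrial genome and one from its nuclear copy cannot be told apart where the sequences are identical, so the number of nuclear copies cannot be read from these ratios.

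**Figure D5:**
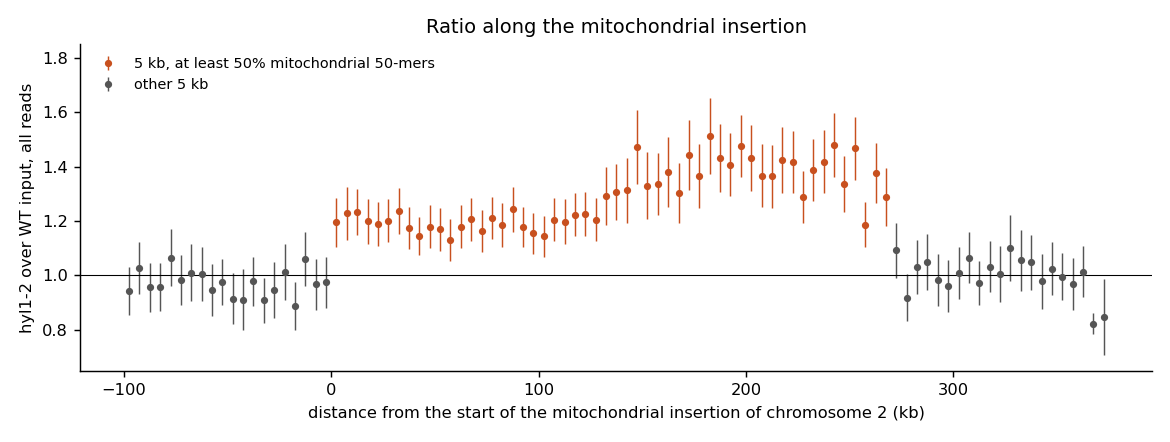
Ratio of RPM over all reads, *hyl1-2* input over WT input, in steps of 5 kb along the mitochondrial insertion of chromosome 2 and 100 kb on either side, by distance from its start, with 95% counting intervals (normal approximation). Steps of mitochondrial sequence (orange) all lie above 1 and are mostly higher past the middle, where the ratio was 1.39 and 1.36, than before it, where it was 1.19 and 1.20, and most grey steps on either side lie near 1, apart from the last full one, whose 3 deepest windows had ratios of 0.803 to 0.822.

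With all reads, 72 windows of 1 kb reached a ratio of 1.5, and 37 of these were among the 260 windows with at least 90% mitochondrial sequence. With unique reads, 6 of the 64 such windows that had enough reads were higher (9.38%) and 0 lower, beside 0.141% of windows without mitochondrial sequence. These shares were not matched for depth. All 260 windows together held 3606 unique reads in WT input, while the median compared window of the genome held 141. In windows of 5 kb, 9 were higher and 10 lower, 4 of the 9 lay in the insertion, and the interval left out 1 in 5 of the 9 and 3 of the 10. Other repeats were 5538 windows without organelle sequence in which at least 90% of reads aligned to several places. They gave a ratio of 0.972 (0.970 to 0.975) over all reads. Their unique reads, 26767 in WT and 34265 in *hyl1-2* input, gave 0.997 (0.981 to 1.01), an interval that includes 1. The ratio over all reads was not corrected for positions already taken, so it is not read as a difference in repeats.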

How the data were processed

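The deposited files hold 1 line per read: the authors aligned the reads to TAIR10 with Bowtie, removed duplicates with SAMtools and extended each read with bedtools (versions not given in the sources used here). The score deposited with each read by the authors is the mapping quality, which is 0 for a read of several places. Inputs were aligned over 50 bp and the ChIP libraries over 75 bp. From these reads, counts were made in Python 3.11.15 with NumPy 2.4.6, pandas 2.3.3, SciPy 1.17.1, PyArrow 21.0.0 and Matplotlib 3.10.9. A fragment was placed 100 bp from the 5′ end of its read along the read's strand, and reads of quality above 0 were used unless stated. Intervals of ratios are exact (Clopper-Pearson, 95%), and no test was run with 1 library per genotype. Duplicates without molecular identifiers cannot be told from independent molecules. Names and coordinates came from the RefSeq annotation of TAIR10.1, whose nuclear chromosomes have the lengths of the reads' build, and the genome sequence came from the same source. The regions and genes named were the 10 highest and the 10 lowest by the bound of the interval nearest to 1, with HYL1, the Microprocessor and reporter MIR genes. All sites were counted, and those with most crossing reads described. The members and lists were chosen with earlier results of these data known. The scripts were tested on simulated data. Alternatives covered scaling, reads of several places, placement, minimum, window size, GC content and thinning.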

Additional observations from a re-analysis of the deposited data

How the results depend on the processing

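Of 68 alternative values of the main results, 39 stayed within the spread or fold set for them and 29 did not. The chloroplast ratio, 0.826, turned direction and became 1.03 with the correction for positions already taken and 0.816 with unique reads. The mitochondrial ratio of 1.30 became 1.37 under both. The counts of higher and lower windows, 164 and 207, became 72 and 66 with all reads, 37 and 54 with at least 50 reads, 9 and 10 in windows of 5 kb and 1 and 5 at a fold of 2. The spread of 0.165 became 0.158 with all reads, 0.154 by overlap of intervals, 0.161 with at least 50 reads, 0.0781 in windows of 5 kb and 0.162 after the GC correction. The difference between pericentromere and arms, −0.001, was 0.0038 with all reads, 0.001 by overlap, 0.0015 in windows of 5 kb and 0.0005 after the GC correction, so its sign is not settled, and that between GC-rich and GC-poor windows, 0.11, was 0.0739 in windows of 5 kb. Runs of empty windows rose from 0 to 6 in *hyl1-2* input and from 0 to 11 in WT input with a minimum of 5 reads. The 20 sites that no *hyl1-2* read crosses became 13 with 10 bp on each side, 0 with at least 15 reads and 46 with thinning, and at the first 2 of these HYL1 was not among them. The 143 sites of WT became 2 with at least 15 reads and 36 with thinning. In isolated genes the ratio upstream of the 5′ end was 0.970 and that past the 3′ end 0.973, and by the midpoint of the deposited interval the former was 0.979. Of 156 alternative values of 52 named regions and genes, 5 left their intervals. Within their intervals, MIR393A went from 0.890 to 1.06 with all reads and AGO1 from 1.01 to 0.994 after the GC correction. No paired analysis was possible because each genotype has 1 input library. Depth limits what single windows show: a window of median depth has a counting error of 0.161 on the log2 scale, near the whole spread. Loci whose positions were all taken give no copy number, and reads of several places were placed by the aligner at 1 of them.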
